A study of Mus musculus with 18 samples.

Results

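The RNAs described here are 7 mouse genes whose transcripts are abundant or structural and are not translated: Malat1, Neat1, Rmrp, Rpph1, Rn7sk, Gm12895 and Gm12896. They were selected on their share of the estimated counts of these libraries, day 7 contralateral library 13 included, so the levels below are a description with no test. Of 49183 genes to which transcripts were matched, 6 of the 7 members had a transcript matched. No transcript was matched for Rn7sk, the 7SK RNA, which is not analysed here. The annotation did not bear out the label of noncoding RNA for all of them: Gm12895 and Gm12896 are annotated as processed pseudogenes.

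The 18 libraries were made from rRNA-depleted total RNA of femoral condyle cartilage caps, from wild-type male C57Bl/6J mice, 12 weeks old. A library is a pool of knees of several mice and not an animal. The injured group had the anterior cruciate ligament (ACL) of the right knee ruptured by a single mechanical load under isoflurane, and the contralateral group was the left knee of such mice. There were 3 libraries each of day 1 contralateral, day 1 injured, day 7 contralateral and day 7 injured knees, and 6 of naive mice, which had no injury and were labelled as day 7. Buprenorphine was given at the start of the experiment. Left and right knees of naive mice were pooled separately, so naive libraries can share mice, and injured and contralateral libraries of a day come from the same mice. The labels do not say which libraries share mice, and p-values that treat them as separate may be too small or too large. The estimated counts per library, the reads that Kallisto assigned to transcripts, ran from 16074762 to 41794005. At that depth the 95% Wilson interval of a member's share was at most 3.96% of its value to either side, which covers counting error only. The tissue was labelled cartilage and the cell type chondrocyte. All 12 chondrocyte markers examined were detected in every library and summed to between 4561 and 9195 counts scaled to library size (CPM), led by the cartilage collagen gene Col2a1. The 7 erythroid markers measured summed to between 14093 and 43153 CPM and were led by the globin gene Hbb-bs. In pooled tissue of this kind, fewer cells of a type and less RNA per cell cannot be told apart.

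Malat1 is a long RNA kept in the nucleus, where it gathers in the nuclear speckles that hold splicing factors. Neat1 is made from the neighbouring gene as a short and a long form, and the long form is the scaffold of the paraspeckle, another nuclear body. Rmrp and Rpph1 are the RNA subunits of the related ribonucleoproteins RNase MRP and RNase P, which cut precursors of ribosomal RNA and of transfer RNA, and both are transcribed by RNA polymerase III. 7SK RNA, with Larp7, Mepce and Hexim proteins, holds the elongation factor P-TEFb (Cdk9 with cyclin T) inactive.

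Coordinates are of GRCm38. Malat1 (chr19:5795690-5802672, minus strand) and Neat1 (chr19:5824708-5845478, minus strand) lie side by side and are annotated as lincRNA, with 4 transcripts each. Rmrp lies on chr4:43492783-43493063, minus strand, where one lincRNA and one ribozyme entry overlap, and their counts were summed. Rpph1 is a ribozyme gene on chr14:50807449-50807767, minus strand. Gm12895 (chr4:122455210-122455435) and Gm12896 (chr4:122122847-122123072) both lie on the plus strand. The short members are shown because sequence they share with other transcripts decides how reads could be assigned. They are the GENCODE M21 transcripts, 5′ to 3′. Capitals mark the 224 bases that Gm12895 and Gm12896 have in common, the 271 bases of the long Rmrp transcript that make up the short one, and the 233 bases of Rpph1 also present in 1 transcript of the protein-coding gene Ccnb1ip1 (the first 300 of 319 bases of Rpph1 are given).
Gm12895: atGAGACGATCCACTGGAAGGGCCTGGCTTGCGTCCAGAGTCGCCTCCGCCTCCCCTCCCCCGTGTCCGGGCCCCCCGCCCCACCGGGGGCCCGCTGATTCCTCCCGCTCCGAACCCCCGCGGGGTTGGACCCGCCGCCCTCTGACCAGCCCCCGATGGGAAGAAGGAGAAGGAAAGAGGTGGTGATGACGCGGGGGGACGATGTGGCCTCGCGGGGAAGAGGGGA
Gm12896: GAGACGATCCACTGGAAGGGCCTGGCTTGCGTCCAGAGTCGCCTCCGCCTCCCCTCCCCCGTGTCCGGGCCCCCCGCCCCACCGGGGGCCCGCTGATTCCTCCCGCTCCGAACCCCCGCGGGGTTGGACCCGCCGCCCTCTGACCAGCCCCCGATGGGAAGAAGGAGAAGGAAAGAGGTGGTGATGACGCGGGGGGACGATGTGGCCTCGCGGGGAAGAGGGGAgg
Rmrp (long transcript): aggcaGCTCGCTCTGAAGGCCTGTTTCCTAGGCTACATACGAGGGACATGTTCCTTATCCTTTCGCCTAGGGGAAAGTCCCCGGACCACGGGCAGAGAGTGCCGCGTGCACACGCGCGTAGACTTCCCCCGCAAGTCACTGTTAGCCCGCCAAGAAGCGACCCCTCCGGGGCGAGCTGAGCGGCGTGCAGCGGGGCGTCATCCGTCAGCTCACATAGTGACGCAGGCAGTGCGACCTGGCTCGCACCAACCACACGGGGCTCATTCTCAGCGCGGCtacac
Rpph1: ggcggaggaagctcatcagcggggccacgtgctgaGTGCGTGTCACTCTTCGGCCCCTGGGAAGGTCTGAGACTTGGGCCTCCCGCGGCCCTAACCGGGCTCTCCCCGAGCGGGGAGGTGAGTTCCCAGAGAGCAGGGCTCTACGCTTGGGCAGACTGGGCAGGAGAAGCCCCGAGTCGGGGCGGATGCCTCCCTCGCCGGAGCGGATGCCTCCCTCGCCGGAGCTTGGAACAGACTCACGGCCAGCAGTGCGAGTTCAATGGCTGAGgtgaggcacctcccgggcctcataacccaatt
Of the 196 stretches of 31 bases in Gm12895, 194 also occur in Gm12896, and the 2 genes had equal estimated counts in all 18 libraries. They are therefore 1 measurement, and their sum is given below as the Gm pair. GC content was 71.2% and 72.1% in the pair, against a median of 49.4% over all transcripts listed. Rpph1 shares 203 of its 289 such stretches with the Ccnb1ip1 transcript, but all Ccnb1ip1 transcripts together held at most 0.000115% of a library, against at least 0.176% for Rpph1. Of the 241 stretches in the short Rmrp transcript, 94 occur in the opposite strand of 1 transcript of the protein-coding gene Ccdc107, which held at most 0.00058% of a library. The strand setting of the counting is not given in the sources used here.

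By mean share of the library the Gm pair was the largest of the members. Each of its genes ranked 4th among all genes, level with one another, after the mitochondrial rRNA gene mt-Rnr2 and the 7SL RNA genes Rn7s1 and Rn7s2. Rpph1 ranked 15th, Malat1 17th, Rmrp 46th and Neat1 515th. These are shares of reads. Per length, in TPM, Kallisto's level corrected for transcript length, the order from high to low in the naive libraries was the Gm pair, Rpph1, Rmrp, Malat1 and Neat1. Kallisto's effective length for Gm12895 and Gm12896 was 66.6 to 83.6 bases for transcripts of 226 bases, so TPM of the short members rests on a large correction for fragment length.

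In the naive knees the Gm pair took between 3.82% and 6.94% of the library, with a median of 5.57% (n = 6). The day 1 contralateral libraries 1, 4 and 5 held 2.52%, 3.87% and 4.33%, and the day 1 injured libraries 2, 3 and 6 held 3.53%, 3.41% and 2.84%. The day 7 injured libraries 16, 17 and 18 held 7.62%, 5.33% and 4.48%. In the day 7 contralateral libraries 13, 14 and 15 the shares were 15.8%, 4.31% and 4.29%. Library 13 thus held more of the pair than any other of the 18 libraries, while its 2 group mates lay within the naive range. The day 1 injured libraries all lay below the lowest naive library and below the lowest day 7 injured library. Between day 1 injured and naive libraries, the shares of 4.15% of all genes tested did not overlap (832 higher and 45 lower), and between day 7 and day 1 injured libraries those of 59.7% did not (1365 higher and 11246 lower).

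Rpph1, the RNase P RNA, took 0.373% to 0.521% of the naive libraries (median 0.415%, n = 6). Its share was 0.34%, 0.523% and 0.422% in the day 1 contralateral libraries and 0.357%, 0.336% and 0.176% in the day 1 injured libraries, the last being library 6. The day 7 contralateral libraries held 0.797%, 0.25% and 0.426%, the first being library 13, and the day 7 injured libraries held 0.508%, 0.371% and 0.375%. Rpph1 was therefore highest in library 13 and lowest in library 6, and its day 1 injured libraries lay below all naive libraries.

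Rmrp, the RNase MRP RNA, took 0.112% to 0.141% of the naive libraries (median 0.125%, n = 6). Its shares were 0.0788%, 0.121% and 0.127% in the day 1 contralateral libraries, 0.0962%, 0.104% and 0.0494% in the day 1 injured libraries, and 0.142%, 0.111% and 0.137% in the day 7 injured libraries. Unlike Rpph1 and the Gm pair it was not high in library 13, which held 0.0759%, beside 0.0811% and 0.138% in the other day 7 contralateral libraries. Library 6 again held the lowest share.

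Malat1 took 0.295% to 0.474% of the naive libraries (median 0.385%, n = 6). Its shares were 0.44%, 0.414% and 0.328% in the day 1 contralateral libraries and 0.424%, 0.422% and 0.439% in the day 1 injured libraries. The day 7 contralateral libraries held 0.208%, 0.301% and 0.339%, and the day 7 injured libraries held 0.263%, 0.238% and 0.288%. All day 7 injured libraries lay below the lowest naive library, as did those of 6510 of the 21128 genes tested, and library 13 held the lowest share of all 18. The shares of 38.1% of all genes did not overlap in that comparison.

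Neat1 was the least abundant member measured, with 0.0152% to 0.0318% of the naive libraries (median 0.019%, n = 6) and between 2450 and 8506 counts in a library. It took 0.0287%, 0.0248% and 0.0197% of the day 1 contralateral libraries and 0.0235%, 0.0309% and 0.032% of the day 1 injured libraries. The day 7 contralateral libraries held 0.0178%, 0.0184% and 0.0185%, and the day 7 injured libraries held 0.0167%, 0.0139% and 0.0178%. The naive libraries spanned most of this range, and the day 7 injured libraries lay below all day 1 injured libraries, as did those of 11246 of the 21128 genes tested.

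**Figure D1:**
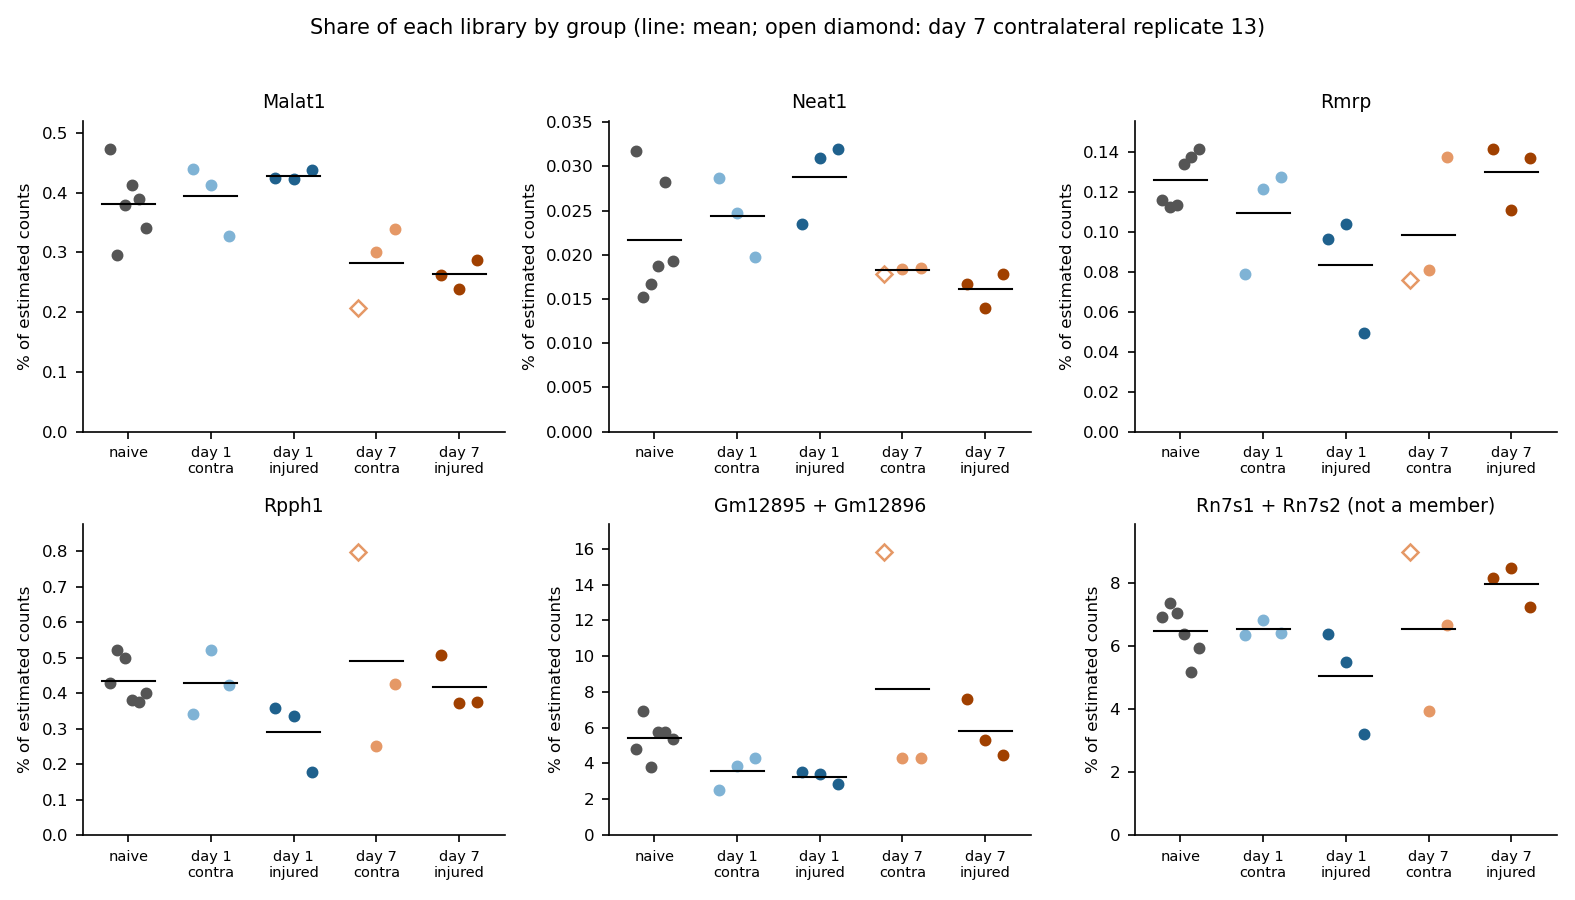
Percent of each library's estimated counts (y axes, linear from 0) for the members measured and, for comparison, the 7SL genes Rn7s1 and Rn7s2, by group (x axes; contra, contralateral); each point is a library, lines are group means and the open diamond is library 13. The Gm pair reached 15.8% in library 13, against at most 7.62% in the other 17, while Malat1 was lowest there at 0.208%.

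Taken over the 6 members measured, the summed share was 3.41% to 8.55% in 17 libraries and 16.9% in library 13. That library stood apart in other measures too. Its mean fragment was the shortest, at 167 bases against 168 to 203 in the others, its mitochondrial genes took 0.878% of counts against 3.56% to 8.51%, and its 10 most abundant genes took 40.9% against 16.3% to 29.4%. An rRNA gene, CT010467.1, took 6.68% of it against 1.03% to 1.81% elsewhere, and transcripts not matched to a gene took 3.9% against 0.667% to 2.4%. The 7SL genes Rn7s1 and Rn7s2, which encode the RNA of the signal recognition particle, took 8.99% of library 13, against 3.22% to 8.48% elsewhere. Whether these differences set the members' levels in library 13 was not tested. Library 6, the low one of the day 1 injured group, held the lowest share of 7SL RNA, at 3.22%, and the highest summed level of 8 skeletal muscle markers, at 12727 CPM against 1746 to 9407 CPM in the others. It also had the highest summed level of 7 osteoblast and osteocyte markers, at 1126.5 CPM against 401 to 926 CPM in the others. The part of muscle or bone RNA in its low values was not tested.

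**Figure D2:**
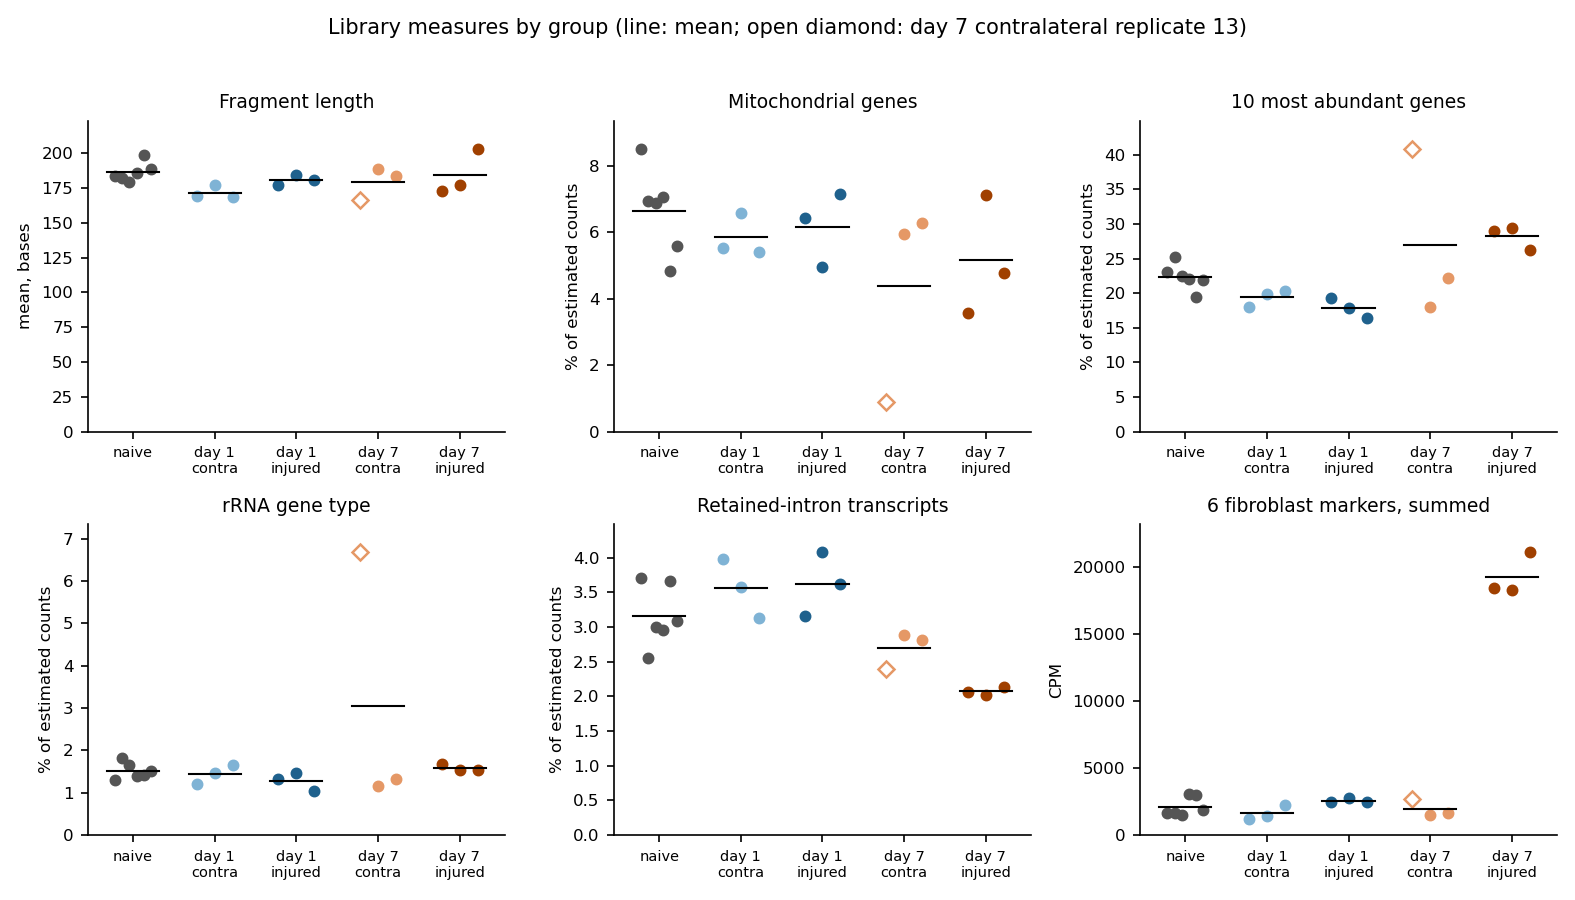
Library measures (y axes with units, from 0) by group (x axes; contra, contralateral): mean fragment length, percent of estimated counts from mitochondrial genes, from the 10 most abundant genes, from rRNA genes and from retained-intron transcripts, and summed CPM of 6 fibroblast markers; each point is a library, lines are means and the open diamond is library 13. Library 13 had 0.878% mitochondrial counts and the day 7 injured libraries had at least 18282 CPM of fibroblast markers, mostly of the collagen gene Col3a1.

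The transcripts of a gene are a measure that the choice of the members did not use. The long form of Neat1 (20771 bases) took 52.5% to 62.9% of the Neat1 counts in naive libraries (median 55.5%) and 60.7%, 61.1% and 62.1% in the day 7 injured libraries. The difference of the means was 4.29 percentage points and the groups overlapped (two-sided exact permutation test, p = 0.214, n = 3 and 6, smallest possible p = 0.0238). Per length, in TPM, the shorter form of 3004 bases made up 74.7% to 84.3% of Neat1 in the 17 libraries other than library 13. In library 13 the long form took 34.8% of counts, below the 50.7% to 62.9% of the others. The full-length form of Malat1 (6983 bases) took 92.8% to 95.7% of the Malat1 counts in naive libraries and 93.7%, 91.7% and 92.1% in the day 7 injured libraries, a difference of -1.60 percentage points (exact permutation, p = 0.0714). Another form of Malat1 (656 bases) took 3.99%, 4.02% and 3.52% there, above the naive range of 1.87% to 3.28%, and 1.22% to 1.65% in the day 1 injured libraries. The longer Rmrp transcript, which extends the short one at both ends, took 3.02% to 5.8% of Rmrp in the 6 day 1 libraries and 6.38% to 11.7% in the 6 injured and contralateral libraries of day 7, with naive libraries between 3.69% and 12.7%. These last 2 transcripts were singled out after their values were seen and were given no test.

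**Figure D3:**
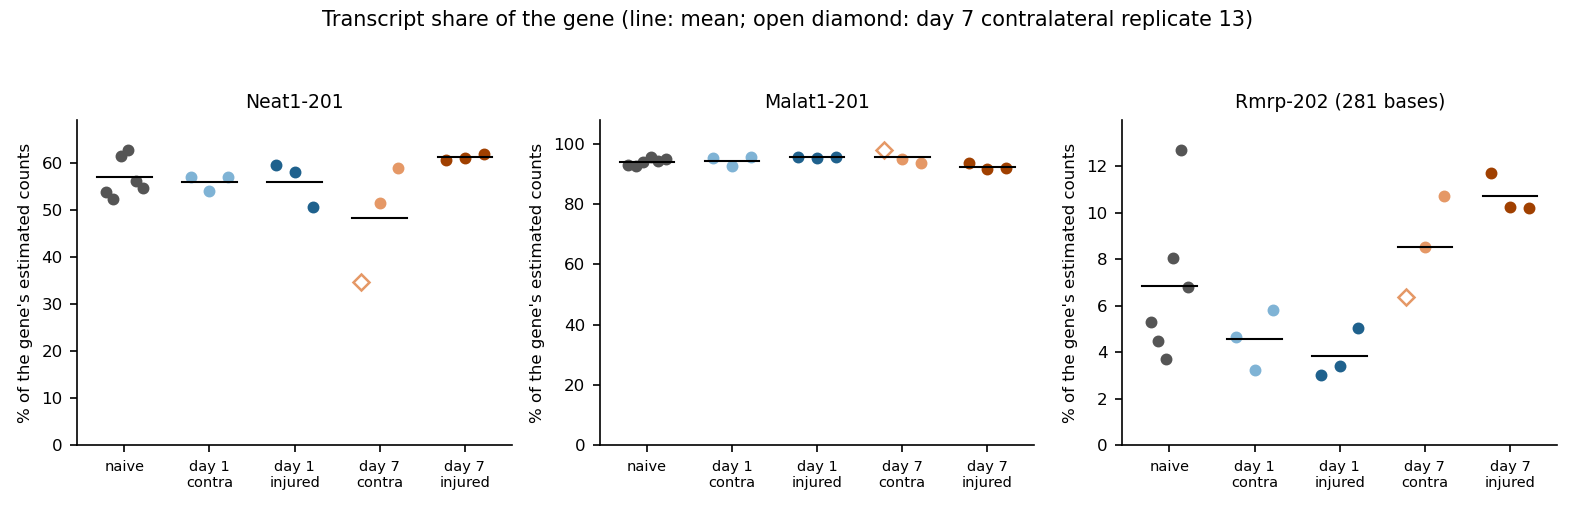
Percent of the gene's estimated counts assigned to the long Neat1, the full-length Malat1 and the longer Rmrp transcript (panels from left to right, y axes from 0) by group (x axes; contra, contralateral); each point is a library, lines are means and the open diamond is library 13. The long Neat1 form was at 34.8% in library 13.

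Groups were then compared with edgeR's quasi-likelihood test over all genes, scaled by the trimmed mean of M-values (TMM). A gene was called when its adjusted p (Benjamini-Hochberg) was at most 0.05 and its fold change at least 1.5. Since the members had been chosen with results of these libraries in view, the values describe these libraries and are no independent support. Comparisons that use the same naive or day 7 injured libraries share them.

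After TMM scaling, the short members were higher in day 7 than in day 1 injured knees and the long ones did not pass the test, a pattern that differed for Rpph1, Malat1 and Neat1 with total counts alone. In day 7 against day 1 injured knees, 15.4% of 21128 genes tested were called (3257 genes, 1910 higher and 1347 lower). Of the members, the Gm pair (counted as 1), Rmrp and Rpph1 were called, all higher. The Gm pair was 2.44-fold higher (log2 1.28 ± 0.29 SE, adjusted p = 0.00554, edgeR, n = 3 and 3). Rmrp was 2.12-fold higher (log2 1.09 ± 0.25, adjusted p = 0.0055). Rpph1 was 1.96-fold higher (log2 0.97 ± 0.27, adjusted p = 0.018). Shares of these RNAs did not overlap between the groups, nor did those of 59.7% of all genes, most of which were lower at day 7. Malat1 had a log2 fold change of -0.25 ± 0.15 and Neat1 one of -0.38 ± 0.21, with adjusted p of 0.222 and 0.188, and their shares of the library, lower at day 7, also did not overlap. TMM scaled the day 7 injured libraries up. With total counts alone, the median of all genes in this comparison moved to -0.45. More than the 15.4% of genes called after TMM were then called, as counted in the last section. On that scaling Malat1 (log2 -0.70) and Neat1 (-0.83) passed the thresholds, the Gm pair (0.84) and Rmrp (0.65) still did, and Rpph1 (0.53) did not. With a transcript length offset, the log2 fold change of Malat1 in this comparison was instead positive. Without library 6, 12.3% of genes were called, the Gm pair (log2 1.17) and Rmrp (0.80) still passed, and Rpph1 (0.69, adjusted p = 0.0601) did not. Rpph1 also lost its call without library 16 (0.80, adjusted p = 0.0691). In a fit over all 18 libraries, which takes in library 13, the Gm pair (log2 1.27, adjusted p = 0.0912) and Rpph1 (0.95, adjusted p = 0.125) lost their calls as well, with little change in the fold.

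Against naive knees, edgeR called no member at either time. In day 7 injured against naive, 16.6% of genes were called (3497 genes, 2206 higher and 1291 lower). The log2 fold changes there were 0.41 ± 0.25 for the Gm pair (adjusted p = 0.219), 0.36 ± 0.21 for Rmrp (0.206), 0.25 ± 0.23 for Rpph1 (0.435), -0.22 ± 0.13 for Malat1 (0.217) and -0.09 ± 0.18 for Neat1 (0.719). With total counts alone the Malat1 value was -0.54 (adjusted p = 0.00688, edgeR), Rpph1 turned slightly negative and the median of all genes was -0.35. More than 16.6% of genes were called on that scaling, as counted in the last section. In day 1 injured against naive, 0% of genes were called by edgeR (0 of 21128), and 4.52% (956 genes) had an unadjusted p under 0.05. limma-voom called 0 genes and DESeq2 called 16, among them the Gm pair (adjusted p = 0.0145) and Rmrp (0.0356), both lower. The short members were at log2 -0.87 ± 0.26 for the Gm pair, -0.72 ± 0.22 for Rmrp and -0.72 ± 0.24 for Rpph1, each with an adjusted p of 0.987. Without library 6 they were at -0.76, -0.44 and -0.45. Malat1 (0.03 ± 0.13) and Neat1 (0.29 ± 0.18) lay nearer to 0.

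Injured and contralateral knees of the same day gave no called member either. In day 1 injured against day 1 contralateral, 0% of genes were called by edgeR (0 of 21128), and 6.55% (1384 genes) had an unadjusted p under 0.05. There limma-voom and DESeq2 also called 0. Rpph1 was at log2 -0.62 ± 0.27 (adjusted p = 0.755), Rmrp at -0.46 ± 0.24 and the Gm pair at -0.20 ± 0.29, while Neat1 was at 0.18 ± 0.20 and Malat1 at 0.06 ± 0.15. Without library 6, Rpph1 was at -0.36, Rmrp at -0.19 and the Gm pair at -0.10. The comparisons with day 7 contralateral knees turned on library 13. With it, 12.6% of genes were called between day 7 injured and contralateral knees, and 11.3% without it. The Gm pair was at -0.60 ± 0.50 with library 13 and 0.77 ± 0.31 without it, and Rpph1 was at -0.29 ± 0.42 with it and 0.63 ± 0.33 without it. Rmrp kept its direction (0.52 ± 0.26 and 0.57 ± 0.30), and Malat1 was near 0 in both (0.03 ± 0.15 and 0.05 ± 0.16). Neat1 was at -0.10 ± 0.22 and 0.14 ± 0.22. In day 7 contralateral against naive, edgeR called 0% of genes (0 of 21261), limma-voom called 0 and DESeq2 called 31. With library 13, 15.1% of genes (3220) had an unadjusted p under 0.05 in edgeR, and without it 5.51% (1201 of 21807) did. There the Gm pair went from 1.00 ± 0.42 with library 13 to -0.35 ± 0.28 without it, and Rpph1 from 0.52 ± 0.36 to -0.37 ± 0.29. The effect of injury at day 7 less that at day 1, each against contralateral knees, had an adjusted p above 0.05 for every member measured. Over all 18 libraries that difference was log2 0.33 ± 0.59 for Rpph1 (adjusted p = 0.831, edgeR), 0.98 ± 0.37 for Rmrp (0.174) and -0.40 ± 0.71 for the Gm pair (0.828). Without library 13 it was 1.25 ± 0.43 for Rpph1 (adjusted p = 0.117, edgeR), 1.03 ± 0.40 for Rmrp (0.171) and 0.97 ± 0.41 for the Gm pair (0.211).

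**Figure D4:**
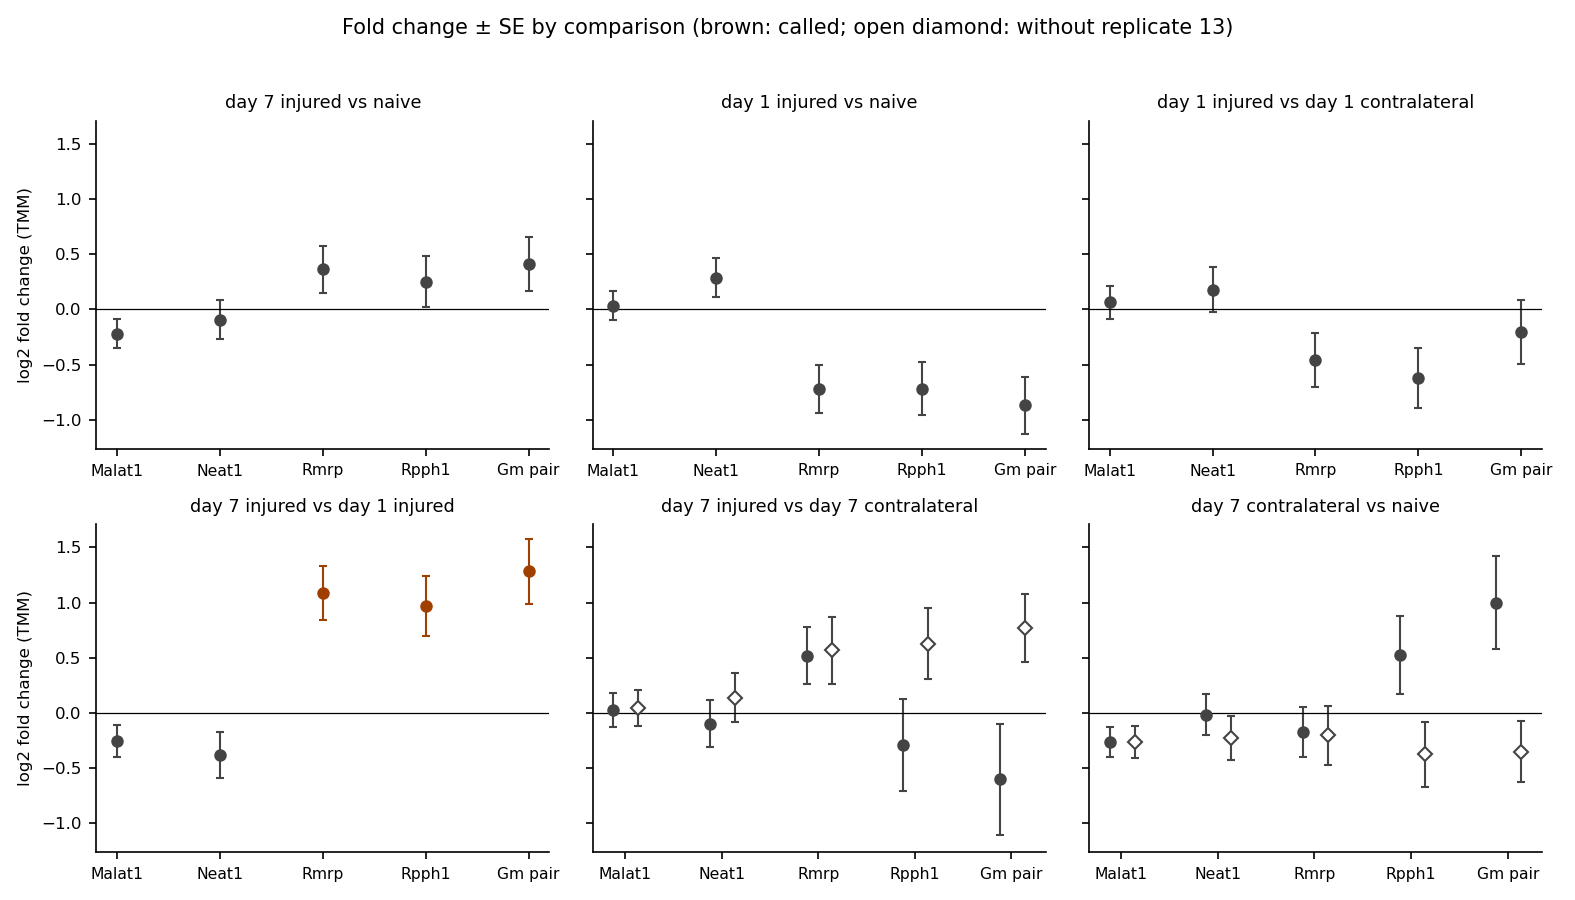
Log2 fold changes after TMM scaling (y axes) with their standard errors for the members measured (x axes) in each comparison; Gm pair stands for Gm12895 and Gm12896, brown points were called and open diamonds are fits without library 13. In day 7 against day 1 injured knees the Gm pair, Rmrp and Rpph1 lay at 1.28, 1.09 and 0.97, and without library 13 the Gm pair and Rpph1 changed sign in the comparisons with day 7 contralateral knees.

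For the genes of proteins that work with these RNAs, the background is 15.4% of all genes called in day 7 against day 1 injured knees and 16.6% against naive knees. Of 10 protein subunits of RNase P and RNase MRP tested, 0 were called in day 7 against day 1 injured knees, and their median log2 fold change was 0.08 against 0.00 for all genes. They ranged from -0.45 for Rpp40 to 0.47 for Pop4, both RNase P and MRP subunits. Against naive knees the same 10 had a median of 0.07, with 0 called, Rpp40 at -0.41 and Pop4 at 0.37. Pop4 had an adjusted p of 0.0103 against day 1 injured and 0.0123 against naive knees (edgeR) but was under 1.5-fold in both. Of 7 genes of the 7SK particle and P-TEFb, 0 were called in either comparison. Hexim1, which encodes the inhibitor of P-TEFb, was at 0.33 ± 0.11 and 0.29 ± 0.10, and Ccnt2, a cyclin T gene, at -0.40 ± 0.11 and -0.34 ± 0.09, each under 1.5-fold. Their adjusted p in the same order was 0.0503 and 0.0373 for Hexim1 and 0.0127 and 0.0122 for Ccnt2 (edgeR). Of 22 genes of RNA polymerase III and the SNAPc factor, which serves the promoters of such short RNAs, 1 was called: Polr3d, a polymerase subunit, higher in day 7 injured knees by 1.68-fold against day 1 injured (adjusted p = 0.00938) and by 1.86-fold against naive (adjusted p = 0.000523). With total counts alone it passed the thresholds in neither comparison. None of 16 paraspeckle proteins and none of 16 speckle and splicing proteins was called by edgeR in these 2 comparisons, with medians between -0.09 and -0.03. In the 2 comparisons at day 1, edgeR called no gene in any list, as in the whole table.

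Among other short structural RNAs, Rn7s1 and Rn7s2 had equal counts in all libraries and are 1 measurement. With them taken once, 22 were tested, the median log2 fold change from day 1 to day 7 injured knees was 0.74, and 4 (18.2%, against 15.4% of all genes) were called, all higher. These were Rnu3a (3.56-fold) and Scarna10 (log2 0.86 ± 0.29), small RNAs of the nucleolus and the Cajal body, the minor spliceosomal RNA gene Rnu12 (3.19-fold), and Rn7s1 with Rn7s2 (2.15-fold). Scarna10, which is not among the largest changes of the list, was named after its value was seen. Without library 6 the median was 0.49 and 1 (4.55%, against 12.3% of all genes) was called, Rn7s1 with Rn7s2. Against naive knees the median was 0.03 and 2 (9.09%, against 16.6% of all genes) were called, the Y RNA genes Rny3 (2.11-fold) and Rny1 (2.08-fold), both rare, at no more than 0.000746% of a library. Rny3 lost its call with day 7 injured library 16 or 17 left out, and Rny1 with any of the 3 left out. Among 20 other long noncoding RNAs tested, 4 were called higher and 2 lower (30.0%) in each of these comparisons, with a median of 0.10 against naive and 0.07 against day 1 injured knees. Without library 6, 3 were called higher and 2 lower in the latter. The largest changes were of Rian, Mirg and Meg3, which lie together in the imprinted Dlk1-Dio3 region. Against naive knees Rian was 5.74-fold, Mirg 4.19-fold and Meg3 2.94-fold higher, and against day 1 injured knees they were 5.24-fold, 3.65-fold and 2.88-fold higher.

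**Figure D5:**
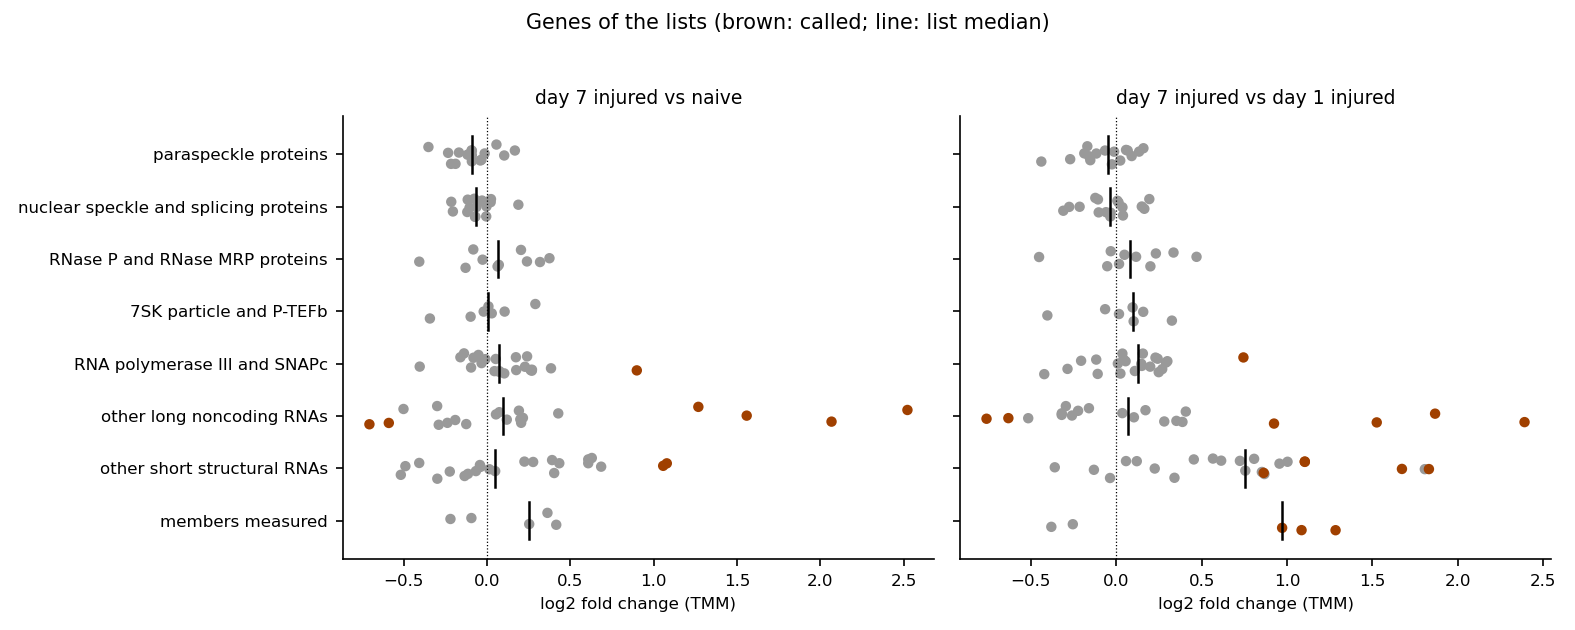
Log2 fold changes after TMM scaling (x axes) of the genes of 7 lists and of the members measured (rows; the Gm pair as 1 point, vertical scatter without meaning) in day 7 injured against naive and against day 1 injured knees; brown points were called and black lines are medians. The 23 other short structural RNAs, with Rn7s1 and Rn7s2 as separate points, had a median of 0.76 against day 1 injured knees and 0.05 against naive knees.

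Likeness between members across libraries depended in part on library 13. Over the 17 libraries other than library 13, with CPM on the log2 scale after TMM, Pearson's r was 0.87 between Rmrp and Rpph1, 0.80 between Rmrp and the Gm pair and 0.70 between Rpph1 and the Gm pair. With library 13 these became 0.68, 0.55 and 0.83. Malat1 and Neat1 had an r of 0.65 with each other and of -0.15 to -0.54 with the short members. With library 13 Malat1 and Neat1 had an r of 0.54, and that of Neat1 went from -0.54 to -0.15 with the Gm pair and from -0.47 to -0.17 with Rpph1. These values, and those that follow, describe libraries that share depth, fragment length and group, and carry no test. Outside the members, Rpph1 was most like the 7SL genes, with r of 0.91 for Rn7s6, Rn7s1 and Rn7s2 alike and 0.93 over all 18 libraries. Rmrp was most like the U3 RNA gene Rnu3a (0.88), Tmem160 (0.86) and Scarna10 (0.85), and over 18 libraries these values were 0.77, 0.43 and 0.81. The Gm pair was most like Tmem160 (0.88), Ccdc71 (0.85) and Faap20 (0.85), with 0.93, 0.88 and 0.93 over 18 libraries. Its r with the rRNA gene CT010467.1 was 0.80 over 17 and 0.90 over 18 libraries. Neat1 was most like Clk1, a kinase gene of splicing control (0.87), Snrnp48 (0.85) and the pseudogene 4931440P22Rik (0.85), with 0.58, 0.79 and 0.86 over 18 libraries. Malat1 was most like the olfactory receptor genes Olfr393 (0.89) and Olfr204 (0.89) and the pseudogene Gm47951 (0.89), with 0.88, 0.89 and 0.88 over 18 libraries. Several of these genes were barely detected, near the minimum mean of 1 CPM set for the search. Mean CPM was 1.38 for Olfr393, 2.58 for Olfr204, 1.68 for 4931440P22Rik and 3.34 for Rn7s6.

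Some other measures differed in the day 7 injured group, several of them with overlap with other groups. The 6 fibroblast markers, all detected in every library, summed to 18457, 18282 and 21114 CPM in its libraries and to between 1228 and 3035 CPM in the other 15. This sum was mostly the collagen gene Col3a1, which reached 20531 CPM in its highest library. Pdgfra, the next highest, reached 239 CPM, and Pi16 stayed between 33.7 and 57.2 CPM. The sum is therefore not a measure of the whole marker set. The 7 erythroid markers, led by Hbb-bs, summed to 22488, 19131 and 14093 CPM in the day 7 injured libraries, against 30887 to 40634 CPM in naive and 21992 to 38887 CPM in day 1 injured libraries. The 8 neutrophil and marrow myeloid markers summed to 9006, 6925 and 6831 CPM, against 10709 to 15205 CPM in naive and 9503 to 14299 CPM in day 1 injured libraries. The 5 adipocyte markers summed to 95.5, 129.7 and 93.8 CPM, against 134 to 376 CPM in naive and 118.6 to 399.3 CPM in day 1 injured libraries. The 8 skeletal muscle markers, led by Myh4, summed to 3604, 1746 and 3212 CPM, against 3127 to 9407 CPM in naive and 3568 to 12727 CPM in day 1 injured libraries, and so overlapped with both. The 5 endothelial markers summed to 314, 326 and 391 CPM, against 245 to 287 CPM in naive and 259.5 to 373 CPM in day 1 injured libraries. The erythroid, adipocyte and endothelial sums thus overlapped with those of day 1 injured libraries. Library 13 held 7490 CPM of the neutrophil and marrow myeloid markers, and day 1 contralateral library 5 held 123.8 CPM of the adipocyte markers. Both lay within the day 7 injured range. The 7 macrophage markers summed to 598 to 657 CPM in day 7 injured and 490 to 713 CPM in naive libraries. All these markers were detected in every library, and the part of these cell types in the members' values was not tested. Transcripts with a retained intron took 2.02% to 2.13% of the counts of day 7 injured libraries, against 2.39% to 4.08% elsewhere. Their 10 most abundant genes took 26.2% to 29.4%, against 16.3% to 25.2% in the others except library 13. Mean fragment length, at 173, 177 and 203 bases, overlapped with that of the day 1 injured libraries, at 177, 184 and 180 bases.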

How the data were processed

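RNA was extracted with TRIzol and a microRNA isolation kit, depleted of rRNA and sequenced as stranded, paired-end libraries. The authors trimmed the reads with Trimmomatic and assigned them with Kallisto to a mouse GRCm38 transcriptome. The deposited tables give the estimated counts, not whole, and TPM of each transcript in each library, and were used as deposited. The submitters' processing notes name a human build, but the identifiers are of mouse. Of 137436 transcripts, 135107 were matched by identifier to GENCODE M21, and estimated counts were summed per gene. The share of the 2329 others was 0.667% to 3.9% of a library.

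Counts were rounded and tested with edgeR 4.0.16 in R 4.3.3 (TMM, filterByExpr, quasi-likelihood, Benjamini-Hochberg over all genes), and the fit was first tested on simulated data. The main fits used 15 libraries, without the day 7 contralateral group, and all 18 for comparisons with that group. limma 3.58.1 (voom) and DESeq2 1.42.0, other scalings and filters, and leaving out each library were alternatives. The SE is the log2 fold change over the root of F. Levels of log2 CPM used a prior count of 2. Mean fragment length is the length less the effective length of long transcripts plus 1. Named were all members, up to 3 called genes of each list with the largest change (Scarna10 was added after its value was seen), members of the RNase P/MRP and 7SK lists, and for each member the 3 genes of mean CPM at least 1 with the highest r. The members and the lists were chosen with earlier results of these data known. Libraries of a group were taken as replicates, and p-values measure the spread between these libraries. The study left out 1 library of low mapping rate without naming it, and no library was left out here on that ground. Rn7sk is not analysed here.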

Additional observations from a re-analysis of the deposited data

Results flagged for a closer look

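In the 6 naive libraries, the Malat1 transcript of 485 bases took 0.00224% of the Malat1 counts in 1 library and was at 0 in the other 5. The Neat1 transcript of 711 bases took 0.122% of the Neat1 counts in 1 naive library and 0% to 0.0268% in the others. Each was marked because its highest library lay far from the rest by Dixon's criterion. They rest on 2.64 and 2.98 estimated counts. Of 20 sets of naive values checked, chance marks about 1 in 20 for normally distributed values, a rate that does not hold for sets like these, in which most libraries are at or near 0, so nothing is read from either mark.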

How the results depend on the processing

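No paired analysis was run, because the labels do not say which libraries hold knees of the same mice. The paper states that its own tests allowed for libraries of the same pool of mice. Of the results that answer a comparison, 124 values under alternatives were marked as unchanged and 4 were not. A test had to keep direction and side of the threshold, and a count to stay within 1.5 times. A ratio of day 7 contralateral to naive mean shares had to move by less than its spread between libraries, which library 13 widened. A ratio that changed direction could so be marked as unchanged. The mean share of Gm12895 was 4.07% against 2.71% in naive libraries, and 2.15% without library 13. That of Rpph1 was 0.491% against 0.434%, and 0.338% without library 13. With total counts alone, 5824 genes were called in day 7 injured against naive and 6835 in day 7 against day 1 injured knees. DESeq2 called 16 genes in day 1 injured against naive and 31 in day 7 contralateral against naive, where edgeR called 0. Leaving out each library in turn gave 2633 to 3649, 2474 to 2901 and 1787 to 2992 called genes in day 7 injured against naive, against day 1 injured and against day 7 contralateral knees, and 0 in the other comparisons. Single genes gave 733 values of unchanged call, 22 weaker, 8 stronger and 26 of opposite sign. With total counts alone, Rpph1 (-0.053) and Hexim1 (-0.022) turned negative in day 7 injured against naive, as did Hexim1 against day 1 injured (-0.12) and Malat1 against day 7 contralateral knees (-0.11). With a transcript length offset, Malat1 was at -0.14 in day 1 injured against naive, -0.056 against day 1 contralateral and 0.10 in day 7 against day 1 injured knees, Rpp40 was at 0.0046 in the last, and Neat1 was at 0.36 in day 7 contralateral against naive. Neat1 was there at 0.0043 with DESeq2's size factors and 0.0046 with DESeq2. The cause was not tested. Leaving out each library gave values of both signs for the following, as log2 fold changes. Neat1 ran from -0.16 to 0.035 in day 7 injured against naive. Malat1 ran from -0.012 to 0.094 in day 1 injured against naive. Malat1 ran from -0.023 to 0.12 in day 1 injured against day 1 contralateral. Malat1 ran from -0.049 to 0.093 in day 7 injured against day 7 contralateral. Neat1 ran from -0.23 to 0.14 in day 7 injured against day 7 contralateral. Rpph1 ran from -0.70 to 0.63 in day 7 injured against day 7 contralateral. Gm12895 (and Gm12896) ran from -1.01 to 0.77 in day 7 injured against day 7 contralateral. Neat1 ran from -0.23 to 0.12 in day 7 contralateral against naive. Rmrp ran from -0.36 to 0.044 in day 7 contralateral against naive. Rpph1 ran from -0.37 to 0.94 in day 7 contralateral against naive. Gm12895 (and Gm12896) ran from -0.35 to 1.41 in day 7 contralateral against naive.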
